A study of Mus musculus with 6 samples.

Results

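The EGR, NAB, NR4A and IER genes were examined by RNA-seq in mouse adipocyte cultures with and without Nelfb, the B subunit of the negative elongation factor NELF, which holds RNA polymerase II (Pol II) paused near the starts of genes. The set was taken by gene symbol from the table of the study and holds Egr1, Egr2, Egr3, Nab1, Nab2, Nr4a1, Nr4a2, Nr4a3, Ier2 and Ier3. These are 10 of the 17924 genes listed there, and 10 of 10 were among the 16252 genes expressed highly enough to be tested. Fibroblasts from the dorsal dermis of newborn mice (P0) had been kept in adipocyte differentiation medium for 14 days. CTL cells came from Nelfb fl/wt or Nelfb wt/wt mice carrying Pdgfra-Cre, and Nelfb-/- cells from Nelfb fl/fl mice carrying Pdgfra-Cre, so that Cre was present in both groups. The mice were on a C57BL/6J background, and each group had 3 libraries, which the study calls biological triplicates. Pdgfra-Cre acts only in cells of the Pdgfra lineage, and the cultures can hold other cells in which Nelfb was not deleted. The labels do not say which of the CTL genotypes each CTL library had.

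Immediate early genes are transcribed within minutes of a growth factor, a hormone or a stress, from promoters that are kept ready for use, and their RNAs are short-lived. Early growth response (EGR) genes encode zinc finger transcription factors, and NAB proteins bind EGR factors and restrain them as corepressors. NR4A genes encode orphan nuclear receptors whose transcription is raised by cAMP and by MAP kinase signaling, whereas IER genes encode small proteins that are induced by many stimuli. In adipose biology Egr2, also known as Krox20, is known as an early driver of adipocyte differentiation, and NR4A genes are known to respond to adrenergic signals in fat cells.

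The promoters of the NR4A genes and of Egr2 are shown because Nr4a1 and Nr4a2 were called as higher in Nelfb-/- cells, Nr4a3 is their nearest relative and was not, and Egr2 was the gene whose Nelfb-/- libraries were all lower. The reference table of promoters (RefSeq, build GRCm38.p6, 250 bases before and 50 bases after each start site) held 7 of the 10 genes, namely Nr4a1, Nr4a2, Nr4a3, Egr2, Nab1, Nab2 and Ier3. Capitals mark each cAMP response element (CRE) half-site, TGACG or CGTCA on the opposite strand, and in Egr2 also a CArG box, the element that serum response factor binds. The printed stretches run 5′ to 3′ on the strand of the gene and hold no base that GENCODE vM21 annotates as an exon of it. Those of Egr2 and Nr4a1 lie before a RefSeq start inside the annotated gene body, which begins further upstream. The table lists 5 start sites for Egr2, and the printed stretch precedes the one at 67537869.
Nr4a1, chr15:101266596-101266845, + strand: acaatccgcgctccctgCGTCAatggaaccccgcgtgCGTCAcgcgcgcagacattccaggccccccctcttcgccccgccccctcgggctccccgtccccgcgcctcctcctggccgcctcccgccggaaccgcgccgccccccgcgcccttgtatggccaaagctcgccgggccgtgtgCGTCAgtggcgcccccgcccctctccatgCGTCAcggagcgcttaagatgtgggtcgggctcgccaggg
Nr4a2, chr2:57124004-57124253, - strand: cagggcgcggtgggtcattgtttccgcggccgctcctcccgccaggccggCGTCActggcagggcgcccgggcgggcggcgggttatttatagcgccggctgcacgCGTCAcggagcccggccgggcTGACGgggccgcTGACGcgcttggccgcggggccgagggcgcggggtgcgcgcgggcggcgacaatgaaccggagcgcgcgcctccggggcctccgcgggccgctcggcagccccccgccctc
Nr4a3, chr4:48045055-48045152, + strand: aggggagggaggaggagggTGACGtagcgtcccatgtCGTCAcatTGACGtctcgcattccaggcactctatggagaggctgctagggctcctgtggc
Egr2, chr10:67537619-67537868, + strand: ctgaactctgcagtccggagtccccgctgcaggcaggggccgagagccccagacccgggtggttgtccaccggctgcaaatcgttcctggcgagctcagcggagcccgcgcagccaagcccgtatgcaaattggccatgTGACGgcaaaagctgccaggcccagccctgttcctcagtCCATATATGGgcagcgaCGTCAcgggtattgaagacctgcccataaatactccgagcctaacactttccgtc

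Each of the 3 NR4A promoters held 4 CRE half-sites in its window of 300 bases. Among all 32851 promoters in the table, which belong to 27025 genes, 20.8% held at least 1 half-site and 0.231% held at least 4. In Nr4a1, all 4 half-sites lay within the longer motif TGCGTCA, and no other promoter in the table held 4 copies of it, while 2.12% held at least 1. The Nab1 window also held 1 half-site, within 1 copy of this longer motif between -125 and -119. The Nr4a1 matches formed a pair between -235 and -209 and a pair between -71 and -36 relative to the start site at 0. Of the 4 half-sites of Nr4a3, 3 lay in the printed stretch and 1 began at -147 from the RefSeq start, beyond the first annotated exon base. The Egr2 window chosen for printing held 2 half-sites and 1 CArG box, a motif present in 1.63% of promoters. Of the 5 Egr2 windows, 3 that overlap one another held both motifs in these numbers, 1 held the CArG box without a half-site, and 1, at the start furthest upstream, held neither. The motif GCGNGGGCG, which EGR factors bind, was found 3 times in the Nab1 promoter and 1 time each in those of Nr4a1 and Nr4a2, against at least 1 in 5.55% of all promoters. Neither the half-site, the CArG box nor the EGR motif was found in the windows of Nab2 and Ier3. The RefSeq starts of Nab1, Nab2 and Ier3 also lie inside the annotated gene bodies, as do the 3 EGR motifs of Nab1. The full CRE (TGACGTCA, in 1.79% of promoters) and the NR4A-binding motif AAAGGTCA (1.51%) were found in no window of these 7 genes. Both strands were searched, the motifs were chosen with the sequences in view, a gene with several start sites counts more than once in the shares, and no binding data were analysed here.

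**Figure D1:**
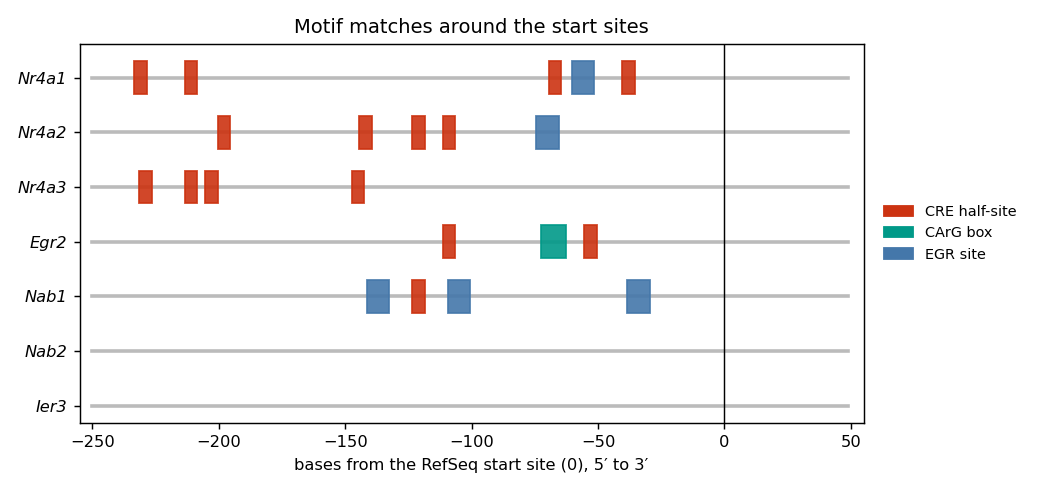
Motif matches (coloured blocks) in a promoter window of each of 7 genes (for Egr2, 1 of its 5 windows), by distance in bases from the RefSeq start site, from 250 before it to 50 after it. The 3 NR4A genes each carry 4 CRE half-sites, the Egr2 window shown carries 2 beside a CArG box, and the lines of Nab2 and Ier3 are empty.

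Expression is given in CPM, that is, reads per gene scaled to 1e+06 reads in the library, without correction for gene length. The depth behind the 6 libraries, read from the smallest step between values, was 17.2 to 29.4 M reads (M, 1e+06), and 3 reads, taken as the floor, were worth 0.102 to 0.175 CPM. Log2 fold changes are Nelfb-/- relative to CTL from limma on log2(value + 1) in read equivalents, a scale that understates the change of weakly expressed genes. A gene was called when its adjusted p was at most 0.05 and its change at least 2-fold. In CTL cells Nelfb was measured at 17.3, 19.6 and 22.3 CPM, and in Nelfb-/- cells at 5.50, 3.90 and 5.55 CPM (log2 fold change -1.99, SE 0.22, limma, adjusted p = 0.00502). Of all genes tested, 11.2% were called, 7.58% as higher and 3.64% as lower in Nelfb-/- cells, and the median log2 fold change was 0.07. Of the calls 67.5% were higher, but 54.9% under quantile normalization, which moved the median over all genes to -0.07.

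The label of adipocytes was checked against marker genes. The 8 adipocyte markers (Adipoq, Plin1, Fabp4, Lep, Cfd, Lipe, Pparg and Cebpa) were detected in every library and summed to 15517 to 24033 CPM in CTL and 6752 to 14248 CPM in Nelfb-/- cells, with 1 called as higher and none as lower. The 7 markers of fibroblasts and preadipocytes summed to 3683 to 13666 CPM in CTL and 6804 to 22897 CPM in Nelfb-/- cells, with 1 of 7 called as higher and CTL replicate 3 the highest CTL library. The 8 macrophage markers summed to 166 to 652 CPM in CTL and 1649 to 5166 CPM in Nelfb-/- cells, with 7 of 8 called as higher and none at 0. Sums were also higher in every Nelfb-/- library for skeletal muscle (6.91 to 9.21 against 42.3 to 68.6 CPM, 4 of 4 tested called as higher), keratinocyte (2.75 to 3.17 against 6.69 to 14.6 CPM, 1 of 4) and Schwann cell markers (46.9 to 58.1 against 90.3 to 115 CPM, 2 of 4, with 1 called as lower). They overlapped for endothelial (6.70 to 10.4 against 7.63 to 21.3 CPM, 1 of 5) and melanocyte markers (48.6 to 73.7 against 50.7 to 167 CPM, 4 of 5, with Tyr at 0 in all CTL libraries). Most of the melanocyte sum in CTL was Mitf (62.8, 72.4 and 47.2 CPM), which overlapped between the groups and was not called. The 4 called melanocyte markers, Tyrp1, Tyr, Dct and Pmel, were each higher in every Nelfb-/- library. Dct, for example, was measured at 0.0902, 0.28 and 0.442 CPM in CTL and at 28.9, 12.05 and 18.8 CPM in Nelfb-/- cells. The part of these other cells in the results that follow was not tested. In such bulk samples fewer cells of a type and less RNA per cell cannot be told apart.

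Of the 10 genes, Egr3, Nr4a1 and Nr4a2 were upregulated in Nelfb-/- cells and none was downregulated, so that 3 of 10 were called as higher where 7.58% of all genes were. The remaining 7 did not pass the test. The log2 fold change was above 0 for 8 of the genes and below 0 for Egr2 and Ier3, and its median over the 10 was 0.53. Without the fold limit the same 3 of 10 passed, against 15.8% of all genes. The groups did not overlap for 5 of the 10, against 38.1% of all genes: Nelfb-/- libraries were the higher ones for Egr3, Nab1, Nr4a1 and Nr4a2 (4 genes, against 22.0% of all genes) and the lower ones for Egr2 (1 gene, against 16.1%). CTL replicate 3 was the highest CTL library for 7 of the 10 genes and the highest of all 6 libraries for Egr1, Egr2, Nab2 and Ier3. Its ratio to the mean of the other CTL libraries was 1.99 for Egr1, 2.76 for Egr2, 2.02 for Egr3, 2.48 for Ier2 and 3.02 for Nab2. These lay within the range from the 5th to the 95th percentile over all genes tested (0.400 to 3.18). Ier3, at 3.56, lay above that range and Nr4a3, at 0.357, lay below it.

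**Figure D2:**
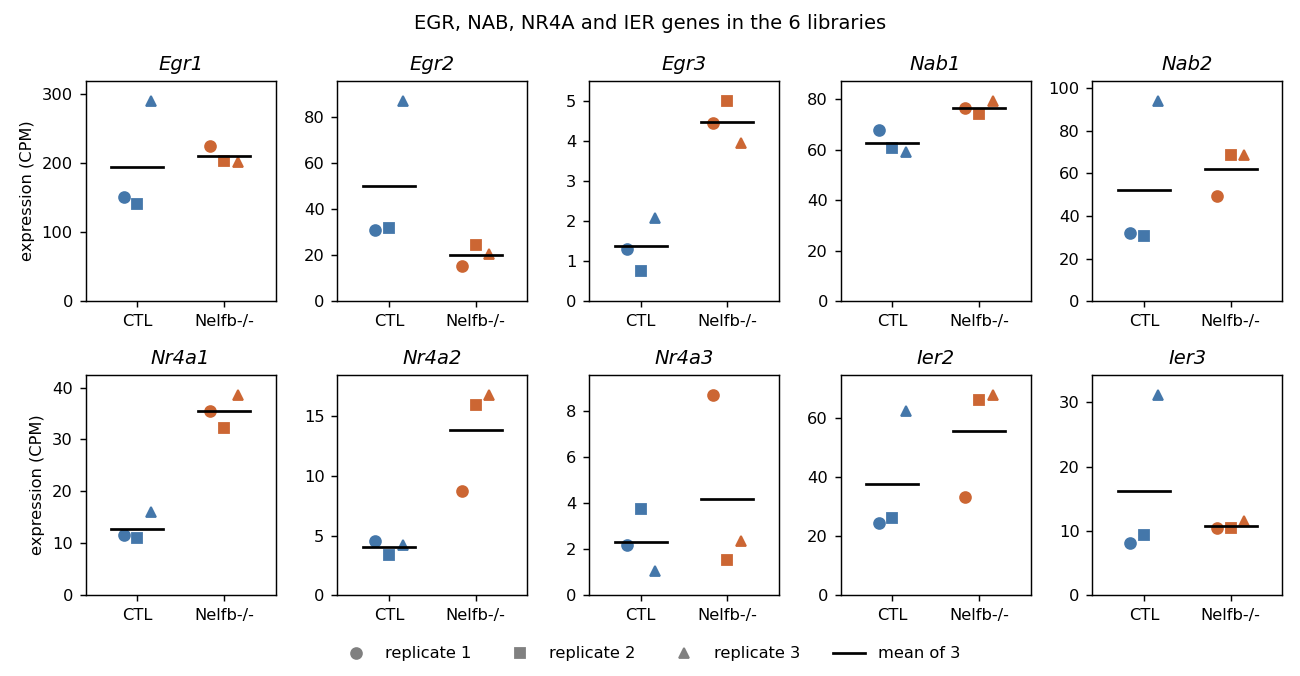
Expression in CPM (linear axis from 0) of the 10 genes in the 3 CTL and the 3 Nelfb-/- libraries, 1 symbol per replicate, with a bar at the mean of 3. The groups stand apart for Egr2, Egr3, Nab1, Nr4a1 and Nr4a2, and CTL replicate 3 stands above both other CTL libraries for 7 of the 10 genes, by most for Ier3 (3.56 times their mean).

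Among the EGR transcription factors, Egr1 had the highest level per kilobase of exon and did not pass the test. Egr1 (ENSMUSG00000038418, chromosome 18), which is induced by serum and growth factors in most cell types, was measured at 151, 141 and 290 CPM in CTL (each triplet of values runs from replicate 1 to replicate 3), and at 225, 203 and 202 CPM in Nelfb-/- cells. All Nelfb-/- libraries lay between the lower pair of CTL libraries and CTL replicate 3, so the groups overlapped (log2 fold change 0.19, SE 0.29, limma, adjusted p = 0.681). Without CTL replicate 3 its log2 fold change was 0.52 with an adjusted p of 0.0378 in limma, short of the 2-fold limit.

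Egr2 was the only gene of the set for which every Nelfb-/- library was lower. Egr2 (ENSMUSG00000037868, chr10:67535475-67542188, GRCm38) was measured at 31.1, 31.9 and 87.0 CPM in CTL and at 15.2, 24.7 and 20.6 CPM in Nelfb-/- cells. Its group means were 50.0 ± 32.1 and 20.2 ± 4.77 CPM (SD, n = 3), and CTL replicate 3 held 2.76 times the mean of the other CTL libraries. The log2 fold change was -1.16 (SE 0.43), a value of 2.23-fold lower that did not pass the test (limma, adjusted p = 0.117). With CTL replicate 3 dropped it was -0.67 (limma, adjusted p = 0.0913), so the size of the difference rested in large part on that library while its direction was the same in all 6 leave-one-out fits.

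Egr3 (ENSMUSG00000033730, chr14:70077203-70082614), a relative of Egr1 that is often induced with it, rose in Nelfb-/- cells from a low level. It was measured at 1.31, 0.747 and 2.07 CPM in CTL and at 4.46, 5.01 and 3.96 CPM in Nelfb-/- cells, which did not overlap. This was a log2 difference of 1.78 (SE 0.40, limma, adjusted p = 0.0310), or 3.42-fold, and the lowest library still held 16.7 read equivalents. The call held without CTL replicate 3 (2.12, limma, adjusted p = 0.0130). Dropping CTL replicate 1, CTL replicate 2 or any of Nelfb-/- replicates 1, 2 and 3 ended the call (limma, adjusted p = 0.0967, 0.0761, 0.0555, 0.102 and 0.105), with log2 fold changes of 1.41 to 1.86.

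The 3 EGR genes therefore gave different values under the same contrast, and ratios within a library were formed to compare them without the shared scale of the library. Per kilobase of exon, Egr2 stood at 0.272, 0.298 and 0.396 of Egr1 in CTL libraries and at 0.0891, 0.160 and 0.135 of Egr1 in Nelfb-/- libraries, which did not overlap (log2 difference -1.35). Egr3 stood at 0.00882, 0.00539 and 0.00728 of Egr1 in CTL libraries and at 0.0202, 0.0251 and 0.01995 in Nelfb-/- libraries (log2 difference 1.62). The ratio of Egr3 to Egr2 was 0.0324, 0.0181 and 0.0184 in CTL and 0.227, 0.156 and 0.148 in Nelfb-/- cells, the largest shift of the 8 ratios compared (log2 difference 2.98). CTL replicate 3, high for both Egr1 and Egr2, gave the highest CTL value for Egr2 over Egr1 and the middle CTL value for the other two ratios. An exact two-sided permutation test gave p = 0.1 for each of these 3 ratios, the smallest value that 3 against 3 libraries allow, and 0.2 after adjustment over the 8 ratios. The ratio of Egr3 to Egr2 is fixed by the other EGR ratios, and that of Nr4a3 to Nr4a2 by the other NR4A ratios. The 8 tests are therefore not independent.

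**Figure D3:**
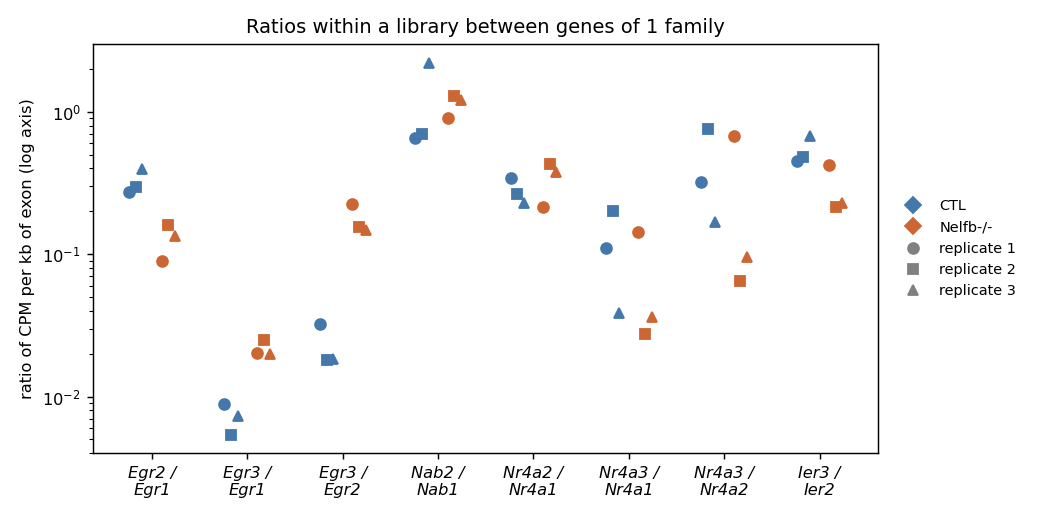
Ratio of CPM per kilobase of exon between genes of 1 family (log axis) in each of the 3 CTL and 3 Nelfb-/- libraries, 1 symbol per replicate. The groups stand apart for the 3 EGR ratios and for Ier3 over Ier2, and they overlap for the NAB and NR4A ratios.

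Nab1 and Nab2, the corepressors of the EGR factors, did not pass the test. Nab1 (ENSMUSG00000002881, chr1:52457294-52500679) was measured at 68.0, 60.7 and 59.1 CPM in CTL and at 76.8, 74.0 and 79.4 CPM in Nelfb-/- cells. Its groups did not overlap, but the difference was small (log2 fold change 0.30, SE 0.12, limma, adjusted p = 0.146), with the smallest SE of the set.

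Nab2 (ENSMUSG00000025402, chr10:127660918-127668568), itself a known target of EGR factors, was measured at 31.9, 30.5 and 94.0 CPM in CTL and at 49.5, 68.8 and 68.7 CPM in Nelfb-/- cells. CTL replicate 3 was the highest of all libraries and the other CTL libraries were the lowest (log2 fold change 0.45, SE 0.45, limma, adjusted p = 0.526). Without CTL replicate 3 the log2 fold change was 0.98 and the adjusted p 0.0211 in limma, just short of the 2-fold limit. The Nab2 gene body overlaps 3 genes on the opposite strand, Stat6 over 40 bases, the antisense gene Gm16229 over 1646 bases and Nemp1 over 1668 bases. Whether reads were counted by strand is not given in the sources used here, so reads of these genes could not be told apart where they overlap. Stat6, which overlaps least, stood at 79.8 to 119 CPM, above Nab2 in every library. Gm16229 stood at 0.207 to 0.682 CPM and Nemp1 at 7.49 to 16.2 CPM, below Nab2 in every library. The ratio of Nab2 to Nab1 overlapped between groups (exact permutation test, p = 0.8).

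Nr4a1 and Nr4a2, whose promoters carry the CRE half-sites printed above, were both upregulated in Nelfb-/- cells. Nr4a1 (ENSMUSG00000023034, chr15:101254269-101274795), also known as Nur77, was measured at 11.5, 10.9 and 15.9 CPM in CTL and at 35.5, 32.1 and 38.6 CPM in Nelfb-/- cells. The lowest Nelfb-/- library lay well above the highest CTL library, and the group means were 12.8 ± 2.75 and 35.4 ± 3.23 CPM (SD, n = 3). This was a log2 difference of 1.48 (SE 0.19, limma, adjusted p = 0.00724), or 2.80-fold. Leaving out single libraries gave 1.38 to 1.65, and the call was kept under all 17 alternative settings, with adjusted p in limma between 0.00467 and 0.0488.

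Nr4a2 (ENSMUSG00000026826, chr2:57106830-57124003), also known as Nurr1, was measured at 4.55, 3.36 and 4.22 CPM in CTL and at 8.77, 15.9 and 16.8 CPM in Nelfb-/- cells. Every Nelfb-/- library was higher, and Nelfb-/- replicate 1 stood at 0.536 of the mean of the other Nelfb-/- libraries. This was a log2 difference of 1.72 (SE 0.30, limma, adjusted p = 0.0158), or 3.29-fold. The test was no longer passed when CTL replicate 1, CTL replicate 2, Nelfb-/- replicate 2 or Nelfb-/- replicate 3 was dropped (limma, adjusted p = 0.0516, 0.0639, 0.0613 and 0.0766), with log2 fold changes of 1.55 to 1.81.

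Nr4a3 (ENSMUSG00000028341, chr4:48045153-48086447), the remaining receptor of the family, was measured at 2.16, 3.73 and 1.05 CPM in CTL and at 8.72, 1.51 and 2.37 CPM in Nelfb-/- cells. Nelfb-/- replicate 1 held 4.50 times the mean of the other Nelfb-/- libraries, which both lay within the CTL range (log2 fold change 0.61, SE 0.74, limma, adjusted p = 0.609). The ratio of Nelfb-/- replicate 1 to the others had a 95th percentile of 2.62 over all genes tested. Without that library the log2 fold change was -0.11 (limma, adjusted p = 0.903). Its promoter carries as many half-sites as those of Nr4a1 and Nr4a2, and its 95% interval, from -1.16 to 2.39, included the values of both. The ratios among the NR4A genes overlapped between the groups, with Nr4a2 at 0.229 to 0.342 of Nr4a1 in CTL and 0.214 to 0.429 of it in Nelfb-/- cells per kilobase of exon (exact permutation test, p = 0.5). Nelfb-/- replicate 1 was also the library with the highest macrophage sum (5166 CPM) and the lowest adipocyte sum (6752 CPM), and their part in the Nr4a3 value was not tested.

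**Figure D4:**
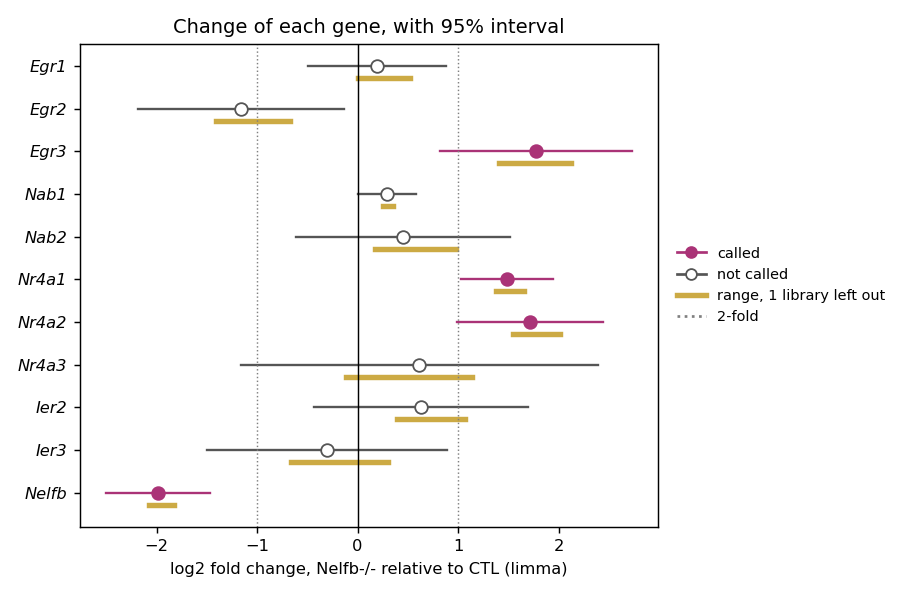
Log2 fold change (Nelfb-/- relative to CTL, limma) of the 10 genes and Nelfb, with points at the estimate, thin lines for the 95% interval and thick lines for the range when 1 library is left out. Filled points were called, dotted lines mark a 2-fold change, and the ranges of Nr4a3 and Ier3 cross 0.

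Ier2 and Ier3 did not pass the test. Ier2 (ENSMUSG00000053560, chr8:84661331-84662854), a nuclear protein gene without introns, was measured at 24.3, 26.0 and 62.4 CPM in CTL and at 33.1, 65.8 and 67.7 CPM in Nelfb-/- cells. In each group 1 library stood apart, CTL replicate 3 above its group and Nelfb-/- replicate 1 below its group (log2 fold change 0.63, SE 0.44, limma, adjusted p = 0.373). Its log2 fold change rose to 1.07 once CTL replicate 3 was dropped (limma, adjusted p = 0.0782).

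Ier3 (ENSMUSG00000003541, chr17:35821684-35822923), which encodes a regulator of cell survival, was measured at 8.12, 9.38 and 31.1 CPM in CTL and at 10.4, 10.5 and 11.5 CPM in Nelfb-/- cells. The Nelfb-/- libraries were close together and all above CTL replicates 1 and 2, while CTL replicate 3 held 3.56 times the mean of the other CTL libraries (log2 fold change -0.30, SE 0.50, limma, adjusted p = 0.713). Without CTL replicate 3 the direction turned, to 0.31 (limma, adjusted p = 0.230). The ratio of Ier3 to Ier2 per kilobase was 0.449, 0.485 and 0.671 in CTL and 0.424, 0.214 and 0.229 in Nelfb-/- cells, without overlap (log2 difference -0.94, exact permutation test, p = 0.1, adjusted over 8 ratios 0.2).

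Per kilobase of exon, the level in CTL cells was highest for Egr1 (43.3 ± 18.6 CPM per kilobase, SD, n = 3), followed by Ier2 (24.7 ± 14.1), Nab2 (17.7 ± 12.3), Nab1 (15.3 ± 1.16), Egr2 (14.7 ± 9.43) and Ier3 (14.3 ± 11.5). Egr1 was above the others in every CTL library, and its lowest CTL value (31.4 CPM per kilobase) exceeded the highest values of Nab1, Egr2 and Ier3 (16.6, 25.6 and 27.5). From Egr1 down to Ier3, neighbours in this order overlapped in their ranges over libraries, while Ier3 stood apart from the next gene. Below them stood Nr4a1 (3.64 ± 0.784 CPM per kilobase) and Nr4a2 (0.996 ± 0.152), each apart from its neighbours, and then Nr4a3 (0.387 ± 0.225) and Egr3 (0.312 ± 0.151), which overlapped. In Nelfb-/- cells Egr1 (46.8 ± 2.88 CPM per kilobase) stood above Ier2 (36.5 ± 12.8), Nab2 (21.2 ± 3.78) and Nab1 (18.7 ± 0.648), where Ier2, Nab2 and Nab1 overlapped in turn. Nr4a1 (10.1 ± 0.921) came next and overlapped Ier3 (9.57 ± 0.558), and both stood above Egr2 (5.93 ± 1.40) and Nr4a2 (3.41 ± 1.09). Egr3 (1.02 ± 0.119) and Nr4a3 (0.702 ± 0.658) were the lowest and overlapped. The order of Egr2 and Nr4a1 was thus reversed between the groups on this scale, with Egr2 above Nr4a1 in every CTL library and below it in every Nelfb-/- library.

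Across the 6 libraries the log2 values of the genes fell into patterns, described here by Pearson's r with n = 6 libraries that share the group difference and the same few outlying libraries. Nr4a1 was closest to Egr3 (0.950) and Nr4a2 (0.919), the genes called with it. Egr1 was closest to Nab2 (0.908), and Nab2 to Ier2 (0.934), which all had their highest CTL value in replicate 3. Egr2 was closest to Ier3 (0.781) and ran opposite to Nab1 (-0.844). Among all genes outside the set, those most like Nr4a1 were Lyn (0.999), a Src family kinase gene expressed in blood cells, Sfxn3 (0.999) and Tbc1d14 (0.998). Those most like Egr2 were Itpk1 (0.999), AK157302 (0.998) and Rps4x (0.998), and those most like Egr1 were Copg2 (0.990), Pdcl (0.988) and Ckap5 (0.987).

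Other immediate early genes were taken from a list of 32, of which 31 were tested. In this list 4 genes were called as higher and 1 as lower in Nelfb-/- cells, 16.1% against 11.2% of all genes. Their median log2 fold change was 0.26. Phlda1, which encodes a pleckstrin homology-like domain protein, rose most evenly, from 10.6, 11.3 and 10.8 CPM in CTL to 57.6, 68.5 and 62.6 CPM in Nelfb-/- cells (log2 fold change 2.52, SE 0.13, limma, adjusted p = 0.00232). Ier5l, a member of the IER family, was measured at 6.54, 5.74 and 21.9 CPM in CTL and at 36.5, 74.0 and 69.2 CPM in Nelfb-/- cells (2.60, SE 0.55, limma, adjusted p = 0.0267). Junb, which encodes a subunit of AP-1, was measured at 34.3, 43.6 and 86.6 CPM in CTL and at 146, 136 and 122 CPM in Nelfb-/- cells (1.41, SE 0.34, limma, adjusted p = 0.0367). The groups stood apart for each of these genes.

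Plk2, a polo-like kinase gene, was measured at 16.1, 24.3 and 26.8 CPM in CTL and at 48.9, 56.0 and 62.0 CPM in Nelfb-/- cells (1.34, SE 0.22, limma, adjusted p = 0.0132). Maff, which encodes a small Maf protein, fell from 66.5, 89.7 and 118 CPM in CTL to 39.8, 33.6 and 26.1 CPM in Nelfb-/- cells (-1.45, SE 0.26, limma, adjusted p = 0.0162). The call of Phlda1 was kept under all 17 alternatives. Ier5l lost its call without CTL replicate 1 or 2 or Nelfb-/- replicate 2 or 3 (limma, adjusted p up to 0.104), and Junb without any 1 library other than CTL replicate 3 (up to 0.128). Maff lost its call without CTL replicate 2 or Nelfb-/- replicate 2 or 3 (up to 0.0707), and Plk2 without Nelfb-/- replicate 2 or 3 (up to 0.0691). When variances were not moderated, Phlda1 was the 1 gene of this list still called, with an adjusted p of 0.104 for Ier5l, 0.120 for Junb, 0.0699 for Maff and 0.0589 for Plk2, and Junb was also lost without the variance trend (limma, adjusted p = 0.0539). The remaining 26 genes of the list did not pass the test.

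**Figure D5:**
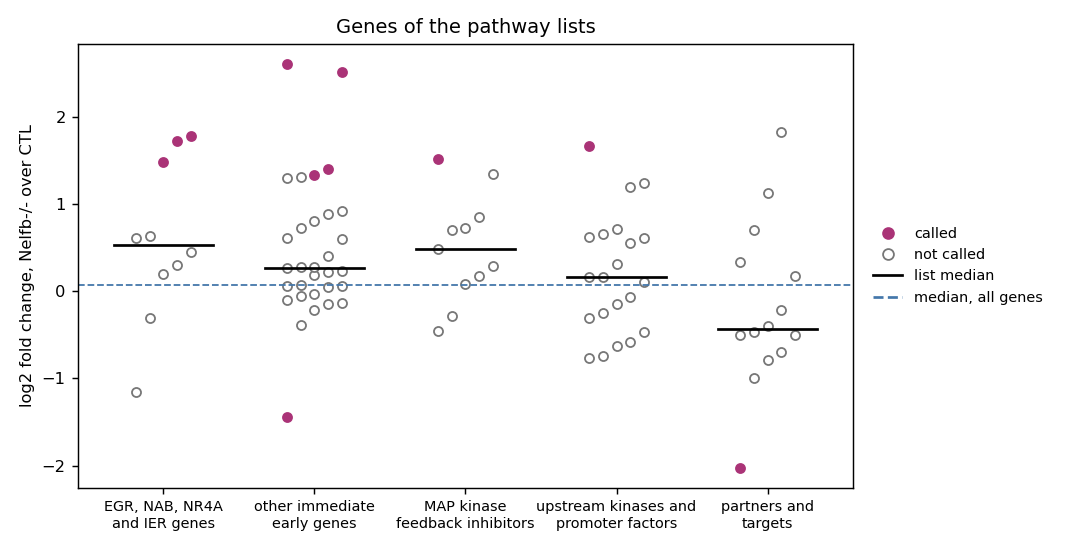
Log2 fold change (Nelfb-/- relative to CTL, limma) of each tested gene in the 10-gene set and in 4 lists of the pathway, filled where called, with a bar at the list median and a dashed line at the median of all genes tested (0.07). Calls are a minority in every list, and the medians run from -0.43 for partners and targets to 0.53 for the EGR, NAB, NR4A and IER genes.

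Upstream of these genes, 21 receptors, MAP kinases, S6 kinases and promoter factors of the SRF and CREB families were tested, and 1 was called as higher, none as lower and 20 not (4.76% called, against 11.2% of all genes). The median log2 fold change was 0.17. The list had 3 calls without CTL replicate 3, a fit that called 2479 of 16325 genes tested. It had 2 without Nelfb-/- replicate 1 (1955 of 16131 genes called) or without the fold limit (15.8% of all genes). Rps6ka1, which encodes a ribosomal S6 kinase downstream of the MAP kinases, was measured at 8.43, 7.05 and 3.71 CPM in CTL and at 24.6, 14.6 and 19.99 CPM in Nelfb-/- cells (1.67, SE 0.36, limma, adjusted p = 0.0273). It fell short of a call without CTL replicate 2 or any 1 Nelfb-/- library (limma, adjusted p up to 0.106) and without moderation of the variances (0.0946).

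Among 12 feedback inhibitors of the MAP kinase pathway (DUSP phosphatases, Sprouty and Spred genes), 11 were tested, 1 was called as higher and none as lower (9.09% called, against 11.2% of all genes). The median log2 fold change was 0.49. Without CTL replicate 3 the list had 3 calls, while 2479 of 16325 genes tested were called. Dusp6, which encodes a phosphatase that inactivates ERK, was measured at 14.1, 15.0 and 22.5 CPM in CTL and at 38.8, 42.4 and 67.5 CPM in Nelfb-/- cells (1.51, SE 0.28, limma, adjusted p = 0.0177). It fell short of a call when CTL replicate 1 or 2 or Nelfb-/- replicate 2 or 3 was dropped (limma, adjusted p up to 0.0724) and without moderation of the variances (0.0742), which left no call in this list.

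Of 15 reported partners and targets of EGR and NR4A proteins, 14 were tested, 1 was called as lower and none as higher (7.14% called, against 11.2% of all genes). The median log2 fold change was -0.43. Pparg and Cebpa are counted both here and among the adipocyte markers, and the part of adipocyte genes in this median was not tested. The list had 3 calls without CTL replicate 3, where 2479 of 16325 genes tested were called. It had 2 without Nelfb-/- replicate 1 (1955 of 16131 genes) and without the variance trend (1744 of 16252). It also had 2 without moderation (684 of 16252), without the fold limit (2566 of 16252) and with voom weights (1699 of 16252). Slc2a4, which encodes the insulin-responsive glucose transporter GLUT4 and is itself an adipocyte gene, was measured at 112, 99.5 and 155 CPM in CTL and at 22.6, 34.1 and 33.3 CPM in Nelfb-/- cells (-2.02, SE 0.24, limma, adjusted p = 0.00575). It was called under all 17 alternatives. The adipocyte marker sum, most of it Fabp4, was also lower in every Nelfb-/- library, and the part of this in the Slc2a4 value was not tested.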

How the data were processed

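RNA-seq of 3 CTL and 3 Nelfb-/- cultures was analysed from a table of genes. The submitters' processing notes name STAR (2.7) and Partek (9.0.20.0202), and the study's methods give mm10, a threshold of 10 reads per gene and analysis of variance in Partek for differential expression. For alignment the methods name another tool than STAR. The counting and its use of strand are not given in the sources used here. The values deposited by the authors are CPM with an offset of 0.0001 added. Of values worth up to 20 reads, 72.4% to 74.9% per library came out as whole reads (tolerance 0.05 reads), so no count test was run.

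The offset was subtracted, values were scaled to a common depth of 22.3 M reads (M, 1e+06), and genes averaging 10 or more read equivalents (0.448 CPM, 16252 genes) went into limma (3.58.1, R 4.3.3) as log2(value + 1), with a variance trend and Benjamini-Hochberg adjustment over all genes tested. The script was tested on simulated data. P-values measure the spread between these libraries. Names and Ensembl IDs came from GENCODE vM21 (17551 genes matched), positions from the authors' table (mm10, GRCm38), and exon lengths from the union of annotated exons. The members and the gene lists were chosen with earlier results of these data known. Named are Nelfb, all 10 members, the called genes of each pathway list, the 3 genes most like Egr1, Egr2 and Nr4a1, and genes overlapping a member. Marker lists covered adipocytes, fibroblasts, macrophages, endothelium, keratinocytes, muscle, melanocytes and Schwann cells. Alternatives were 17 other settings.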

Additional observations from a re-analysis of the deposited data

How the results depend on the processing

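The number of genes called was 1824, and 3 of the 10 members were called. These counts were 684 and 1 when variances were not moderated. With each library left out in turn they ran from 426 (without Nelfb-/- replicate 3) to 2479 (without CTL replicate 3) and from 1 to 3. The other settings (pseudocount, filter, size factors, quantile normalization, variance trend, voom, no fold limit) gave 1699 to 2566 genes called and 3 members. Nr4a1 and Nelfb were called under all 17 alternatives. With single libraries left out, Ier3 ran from -0.66 to 0.31 (reversed without CTL replicate 3) and Nr4a3 from -0.11 (reversed without Nelfb-/- replicate 1) to 1.14, neither called in any of these fits. Without moderation Egr3 and Nr4a2 lost their calls (limma, adjusted p = 0.0869 and 0.0624), as did Ier5l, Junb, Maff, Plk2, Rps6ka1 and Dusp6, while Phlda1 and Slc2a4 were called under all 17 alternatives. The cause of these changes was not tested. Labels number the replicates alike in both groups, but deviations of same-numbered libraries correlated at 0.515, -0.395 and 0.518, so the numbers were not taken to pair them. CTL replicates 1 and 2 both varied with Nelfb-/- replicate 1 (0.515 and 0.48). CTL replicate 3 varied with Nelfb-/- replicates 2 and 3 (0.536 and 0.518). All remaining pairs were negative (-0.395 to -0.631). The source of this pattern across the groups was not tested. A fit with a replicate block called 2175 genes, 3 members, 6 other immediate early genes (5 without the block), 3 upstream genes (1 without it) and 2 partners and targets (1 without it). Depth limits Egr3 and Nr4a3 most, whose lowest libraries held 16.7 and 23.5 read equivalents.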
